A study of Homo sapiens with 6 samples.

Results

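The genes examined here are 10 genes that carry human cells from G2 into mitosis and on to the start of mitotic exit. They are the cyclins *CCNA2*, *CCNB1* and *CCNB2*, the kinase *CDK1*, the phosphatases *CDC25A*, *CDC25B* and *CDC25C*, the kinases *PLK1* and *AURKA*, and the anaphase activator *CDC20*. They were chosen by gene symbol for their function, and 10 of the 20348 genes in the deposited table carry one of these symbols. RNA-seq was made from MV4-11 cells, an established human acute myeloid leukemia (AML) cell line. The 3 Control samples were untreated, and the 3 WNK463 samples received 1 μM of WNK463, an inhibitor of the WNK kinases, for 48 h. One cell line, one dose and one time point were sampled, and nothing in the labels says that the replicates were separate cultures, so the p-values measure the spread between these samples.

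Entry into mitosis is a switch built around CDK1. Cyclin A2 and the B-type cyclins bind CDK1, and the kinases WEE1 and PKMYT1 hold the bound kinase inactive by phosphorylating it. The CDC25 phosphatases remove these phosphates, PLK1 and Aurora kinase A help to turn the switch, and CDC20 later directs the anaphase-promoting complex (APC/C) to destroy cyclin B. The transcripts of most of these genes rise late in the cell cycle through promoter elements known as CHR and CCAAT boxes, while *CDC25A* is also known as a target of the E2F factors that act at the start of S phase.

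The promoters were read to show which of these elements each gene carries. RefSeq promoter windows on GRCh38.p14, from 250 bases before to 50 bases after a start site, were found for 9 of the 10 genes, and *AURKA* was not matched. Each motif was searched on both strands. The CHR element TTTGAA was present in 5 of the 9 genes, against 18.2% of all 27305 genes with a window. The CCAAT box was present in 9 of 9, against 39.7% of all genes. The variant TTTAAA was present in 5 genes, against 14.5%. The variant TTCGAA was present in *CDC25B* alone, against 1.8% of all genes. An E2F element, searched as TTTCCCGC or TTTGGCGC or TTTCGCGC or TTTGCGC, was present in *CDC25A* and *CDK1*, against 5.5%. Genes with several start sites had several windows, and a match in any of them was counted. The 9 genes had 16 windows, more per gene than the 35116 windows of all genes. Of all windows, 15.2% held TTTGAA, 34.6% CCAAT, 12.2% TTTAAA, 1.4% TTCGAA and 4.6% an E2F element. The TTTAAA match of *CDC25B* lay only after a start site, at base 33. In the stretches below the capitals mark only the element named on the line, at its match nearest upstream of a start site. CCAAT boxes are left in lower case, also where one lies within the stretch, as in *CDC20*. Each stretch is 30 bases long and reads 5′ to 3′ on the gene's own strand.
*CCNB2*, CHR element, chr15:59105105-59105134, plus strand: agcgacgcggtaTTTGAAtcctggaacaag
*CDK1*, CHR element, chr10:60778453-60778482, plus strand: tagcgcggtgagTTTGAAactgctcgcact
*CDC25C*, CHR element, chr5:138331817-138331846, minus strand: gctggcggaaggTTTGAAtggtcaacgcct
*PLK1*, CHR element, chr16:23678848-23678877, plus strand: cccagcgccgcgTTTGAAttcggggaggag
*CDC20*, CHR element, chr1:43358904-43358933, plus strand: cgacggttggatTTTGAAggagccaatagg
*CCNB1*, variant element, chr5:69167108-69167137, plus strand: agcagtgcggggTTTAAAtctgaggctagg
*CDC25B*, variant element, chr20:3796260-3796289, plus strand: ctgctgttatttTTCGAAtatataaggagg
*CDC25A*, E2F element, chr3:48188443-48188472, minus strand: ggtggattccgTTTGGCGCcaactaggaaa
The match began 29 bases before the start site in *CCNB2* and *PLK1*, 30 in *CCNB1* and *CDC25C*, 13 in *CDK1*, 38 in *CDC25B*, 44 in *CDC25A* and 65 in *CDC20*. *CCNA2* had a CCAAT box and none of the other elements searched, and further variants of the CHR element were not searched. These matches describe letters in the windows and not bound sites.

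The samples held between 14915745 and 17411780 counts in all, and 11973 genes passed the filter on low counts, including all 10 mitotic entry genes. Levels between samples are CPM, counts scaled to a TMM library of 1000000. Of 10 myeloid markers, 9 were above 1 CPM in both groups, *CD14* was near 0, and the summed level was 2497 to 2583 CPM in Control and 1643 to 1681 CPM with WNK463, of which *LYZ* made up 1355 and 291 CPM on average. The myeloid markers moved both ways, with 4 of the 9 tested lower and 4 higher. Lower were *MPO* (log2 fold change -2.5), *LYZ* (-2.22), *CD33* (-0.38) and *FLT3* (-0.20). Higher were *CD4* (log2 fold change 0.66), *HOXA9* (0.72), *ITGAM* (1.25) and *MEIS1* (0.33). Of 10 genes listed as markers of other cell types, only *KRT18* and *PECAM1* exceeded 1 CPM. The summed level, most of it *PECAM1*, was 102 to 115 CPM in Control and 170 to 184 CPM with WNK463. Whether *KRT18* and *PECAM1* came from other cells was not tested. *PECAM1* went from 96.9 to 169 CPM on average and *KRT18* the other way, from 10.1 to 6.31 CPM. *MS4A1*, *HBB*, *COL1A2* and *EPCAM* were at 0 counts in all samples. The part of these shifts in the values below was not tested. In these bulk samples, fewer cells in G2 and mitosis cannot be told apart from less RNA of a gene per cell.

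Most of the mitotic entry genes were lower with WNK463, but by very different amounts. *CDC25A* fell most, to less of its Control level than any other member, followed in order of log2 fold change by *CDC20*, *PLK1*, *CDC25C* and *AURKA*. *CDK1*, *CCNA2* and *CCNB1* fell less, and *CCNB2* and *CDC25B* did not pass the test. At an adjusted p below 0.05 in edgeR's quasi-likelihood test, 8 of the 10 genes passed, all of them as lower. None passed as higher. All 10 log2 fold changes were negative in this fit and with DESeq2, so no p threshold could have called one higher there. With total-count scaling *CCNB2* and *CDC25B* were positive, and neither passed. *CDC25B* was at 0.13 in that fit, with an unadjusted interval from 0.005 to 0.25 that lay above 0 (edgeR adjusted p = 0.059). With TMM scaling, 35.3% of all tested genes were lower, 35.5% higher and 70.8% passed in either direction. The 10 genes had a median log2 fold change of -0.45, against 0.02 over all tested genes. Only *CDC25A* was also past a log2 fold change of 1 in size, a rule by which 5.55% of all tested genes were lower and 9.62% higher. That call was lost with total-count scaling, with limma on TPM and with glmTreat, where 0 of the 10 genes were past it. By TMM-scaled CPM, the WNK463 samples lay below all Control samples in 9 of the 10 genes. With total-count scaling and by TPM the groups of *CDK1* overlapped, and by TPM *CCNB2* was higher in all WNK463 samples. Over all tested genes the groups did not overlap in 73.5%, with WNK463 below in 36.4% and above in 37.1%. For any one gene, the smallest p that exact permutation of 3 against 3 samples allows is 0.10.

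**Figure D1:**
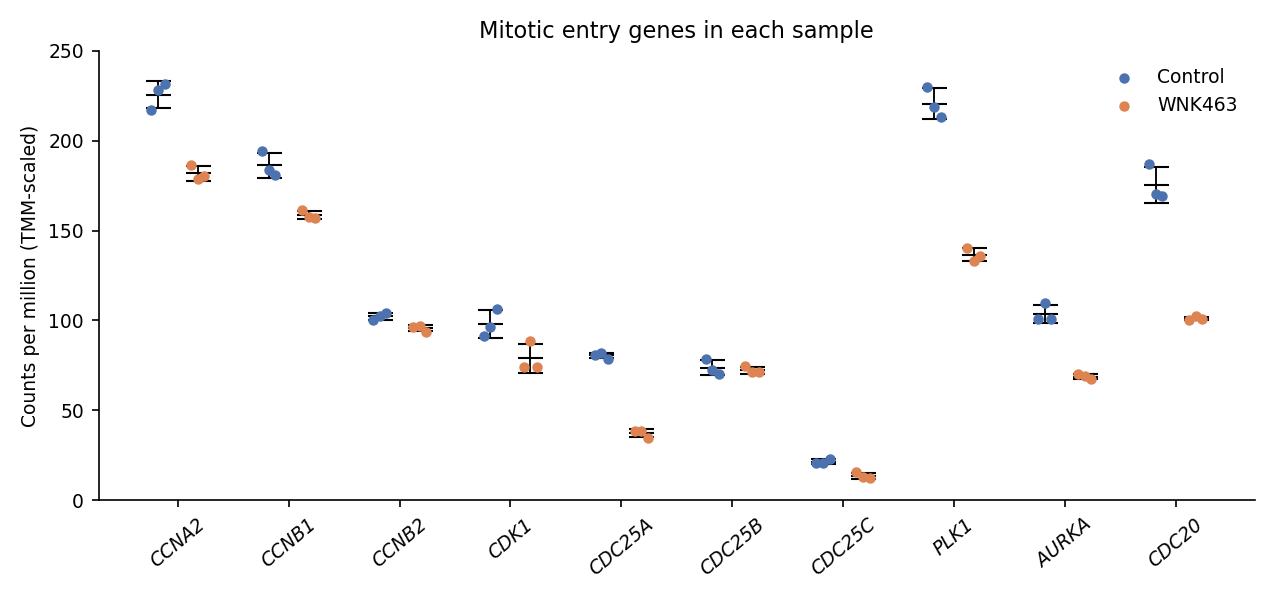
CPM (linear axis from 0) of the 10 mitotic entry genes in each of the 3 Control and 3 WNK463 samples. Points are samples, and black bars are the group mean with its SD. The groups overlap only in *CDC25B*.

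The 3 CDC25 phosphatases parted from one another. Positions are those of GENCODE 29 on GRCh38, and all 10 genes are annotated as protein coding. *CDC25A* (ENSG00000164045, chr3:48157146-48188402, minus strand), which acts on cyclin-dependent kinases in S phase as well as in G2, had 80.9, 81.9 and 78.7 CPM in Control and 38.7, 38.6 and 34.8 CPM with WNK463. The groups were far apart, and fitted expression fell by 53.6%, a log2 fold change of -1.11 (standard error, SE, 0.06, edgeR adjusted p = 3.8e-11). *CDC25C* (ENSG00000158402, chr5:138285265-138338355, minus strand), which activates CDK1 at the entry into mitosis, was the least abundant of the 10 genes, with 20.6, 20.8 and 23.1 CPM in Control and 15.5, 12.7 and 12.3 CPM with WNK463. The groups did not overlap, and *CDC25C* fell by 0.67 on the log2 scale (SE 0.10, adjusted p = 1.5e-05). *CDC25B* (ENSG00000101224, chr20:3786772-3806121, plus strand), known as the starter phosphatase of mitosis, had 78.5, 72.5 and 70.1 CPM in Control and 74.7, 71.2 and 71.3 CPM with WNK463. The WNK463 values lay inside the Control range, and the log2 fold change of -0.03 had a 95% interval from -0.15 to 0.10 (adjusted p = 0.69 from edgeR).

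*PLK1* (ENSG00000166851, chr16:23677656-23690367, plus strand), a kinase that activates CDC25C and marks WEE1 for destruction, had 230, 219 and 213 CPM in Control and 140, 133 and 136 CPM with WNK463. *AURKA* (ENSG00000087586, chr20:56369389-56392337, minus strand), the kinase that activates PLK1 together with its cofactor BORA, had 101.0, 109.5 and 100.6 CPM in Control and 70.0, 69.1 and 67.2 CPM with WNK463. *CDC20* (ENSG00000117399, chr1:43358955-43363203, plus strand), the mitotic activator of the APC/C, had 187, 170 and 169 CPM in Control and 100.4, 102.2 and 100.7 CPM with WNK463. In each of these genes the groups were well apart, and the spread among the treated samples was small. Log2 fold changes from edgeR were -0.69 for *PLK1* (SE 0.05, adjusted p = 8.5e-10), -0.59 for *AURKA* (SE 0.06, adjusted p = 3.1e-08) and -0.80 for *CDC20* (SE 0.05, adjusted p = 3.3e-10). Among all tested genes ordered by fold change from the lowest, *CDC25A* stood at the 4.22 percentile, *CDC20* at 9.14, *PLK1* at 11.8, *CDC25C* at 12.2 and *AURKA* at 14.9.

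*CDK1* and its cyclins had smaller fold changes. *CDK1* (ENSG00000170312, chr10:60778331-60794852, plus strand) had 91.3, 96.6 and 106.2 CPM in Control and 74.3, 88.3 and 74.0 CPM with WNK463. The groups did not overlap on this scale, but 1 treated sample came close to the lowest Control sample. By TPM that sample, at 100.1, lay inside the Control range of 88.7 to 106.0. *CDK1* fell by 0.31 on the log2 scale (SE 0.07, edgeR adjusted p = 8.2e-04). *CCNA2* (ENSG00000145386, chr4:121816444-121823933, minus strand), the cyclin of S phase and G2, had 217, 228 and 231 CPM in Control and 187, 179 and 180 CPM with WNK463, a log2 fold change of -0.31 (SE 0.05, adjusted p = 1.3e-05). With limma on log2(TPM + 1) *CCNA2* was at -0.12 and did not pass (adjusted p = 0.058). *CCNB1* (ENSG00000134057, chr5:69167010-69178245, plus strand), the main cyclin of mitotic CDK1, had 194, 183 and 181 CPM in Control and 161, 158 and 157 CPM with WNK463, and it fell by 0.23 on the log2 scale (SE 0.05, adjusted p = 3.5e-04). In both cyclins all treated samples lay below all Control samples. *CCNB2* (ENSG00000157456, chr15:59105078-59125045, plus strand), the other B-type cyclin of dividing cells, had 100, 102.4 and 104.3 CPM in Control and 96.3, 96.8 and 93.7 CPM with WNK463. Its groups did not overlap on this scale, but its fold change of -0.10 on the log2 scale, with a 95% interval from -0.20 to 0.01, did not pass the test (adjusted p = 0.097 from edgeR).

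The smaller changes depended on how the libraries were scaled, and with limma on TPM neither *CCNA2*, *CCNB1* nor *CDK1* passed. TMM factors were 0.944 to 0.951 in Control and 1.05 to 1.06 with WNK463, so scaling by total counts raised every fold change, and the median over all tested genes moved by 0.15 on the log2 scale. It also changed the split of all genes past the test from 50.2% to 63.9% higher. With total counts, *CDC25A*, *CDC20*, *PLK1*, *CDC25C*, *AURKA* and *CCNA2* were lower at log2 fold changes of -0.95, -0.64, -0.54, -0.52, -0.44 and -0.16. In that fit 26.1% of all tested genes were lower. *CDK1* and *CCNB1* did not pass, at -0.16 (adjusted p = 0.069) and -0.08 (adjusted p = 0.13), and *CCNB2* and *CDC25B* changed sign to 0.05 (adjusted p = 0.33) and 0.13 (adjusted p = 0.059). A change of library scaling moves all genes by about the same amount, so values measured from the median of all tested genes stay the same by construction. These were -1.12 for *CDC25A*, -0.81 for *CDC20*, -0.71 for *PLK1*, -0.69 for *CDC25C*, -0.61 for *AURKA*, -0.33 for *CDK1* and *CCNA2*, -0.25 for *CCNB1*, -0.11 for *CCNB2* and -0.04 for *CDC25B*. With limma on log2(TPM + 1), where they can differ, they ran from -1.05 for *CDC25A* to -0.01 for *CDC25B*. The 10 genes together took 0.121% to 0.123% of all counts in the Control samples and 0.0974% to 0.101% in the WNK463 samples.

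**Figure D2:**
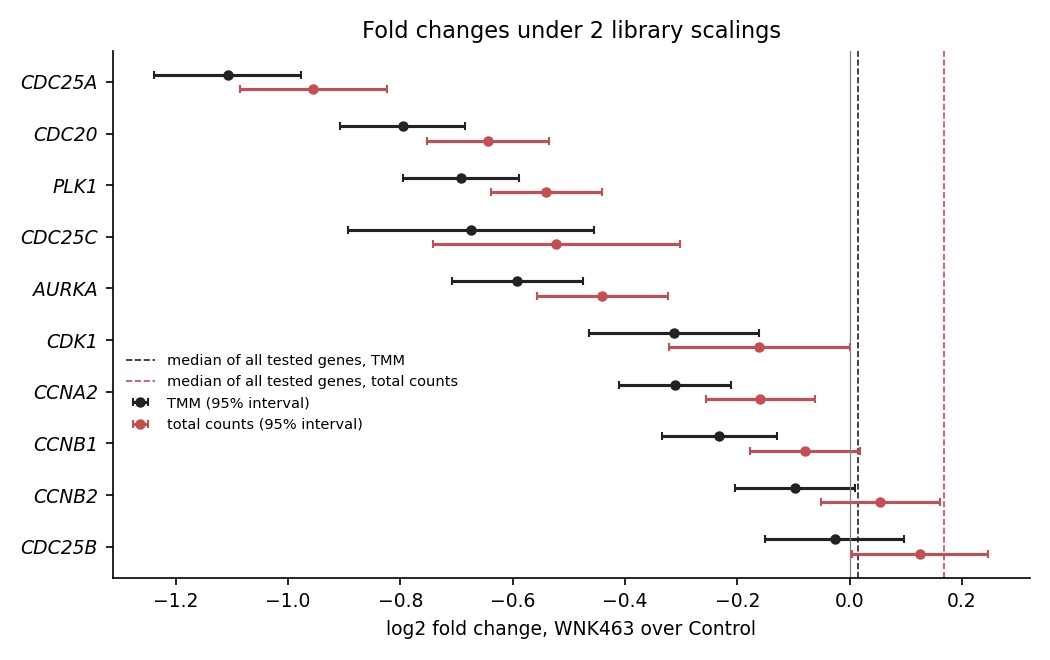
Log2 fold change (WNK463 over Control) of each gene with its 95% interval from edgeR, under TMM scaling (black) and scaling by total counts (red). Dashed lines mark the median of all tested genes, at 0.02 and 0.17. The order of the genes is the same under both, and *CCNB2* and *CDC25B* lie below 0 with TMM and above 0 with total counts.

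Ratios of 2 genes within a sample do not depend on the scaling, and 12 were compared between the groups by exact two-sided permutation tests. They were chosen with earlier results of these data known. Ratios to *CDC25B*, whose own log2 fold change was -0.03, largely repeat the change of the other gene. The smallest p that 3 samples against 3 allow, 0.10, was reached by 8 of the 12 ratios (0.15 after Benjamini-Hochberg adjustment over the 12). *CDC25A* and *CDC25B* had about equal counts in Control, with ratios of 1.03, 1.13 and 1.12, and with WNK463 the ratio was 0.519, 0.542 and 0.488. This was a shift of -1.08 on the log2 scale, against SDs of 0.07 and 0.08 within the groups (exact permutation p = 0.10). *CDC25C* relative to *CDC25B* had ratios of 0.263, 0.287 and 0.330 in Control and 0.207, 0.179 and 0.172 with WNK463 (exact permutation p = 0.10). The ratio of *CDC25A* to *CDC25C* was also lower in all 3 treated samples, by 0.43 on the log2 scale (exact permutation p = 0.10).

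Among the cyclin and kinase pairs, *CDC20* relative to *CCNB1*, a substrate of the APC/C bound to CDC20, had count ratios of 0.962, 0.929 and 0.934 in Control and 0.622, 0.648 and 0.642 with WNK463, a log2 shift of -0.56 with SDs of 0.03 in both groups. *CCNB2* relative to *CCNB1* was higher in every treated sample, by 0.13 on the log2 scale, with ratios of 0.515 to 0.576 in Control and 0.597 to 0.614 with WNK463. *CDC20* relative to *PLK1* was lower in every treated sample by 0.10, but on the TPM scale the groups of this ratio overlapped. The other pairs overlapped between the groups. *CCNA2* relative to *CCNB1* differed by -0.08 (exact permutation p = 0.40), *CDK1* relative to *CCNB1* by -0.08 (p = 0.60), *CDK1* relative to *CCNA2* by -0.01 (p = 1) and *AURKA* relative to *PLK1* by 0.10 (p = 0.30), all on the log2 scale.

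**Figure D3:**
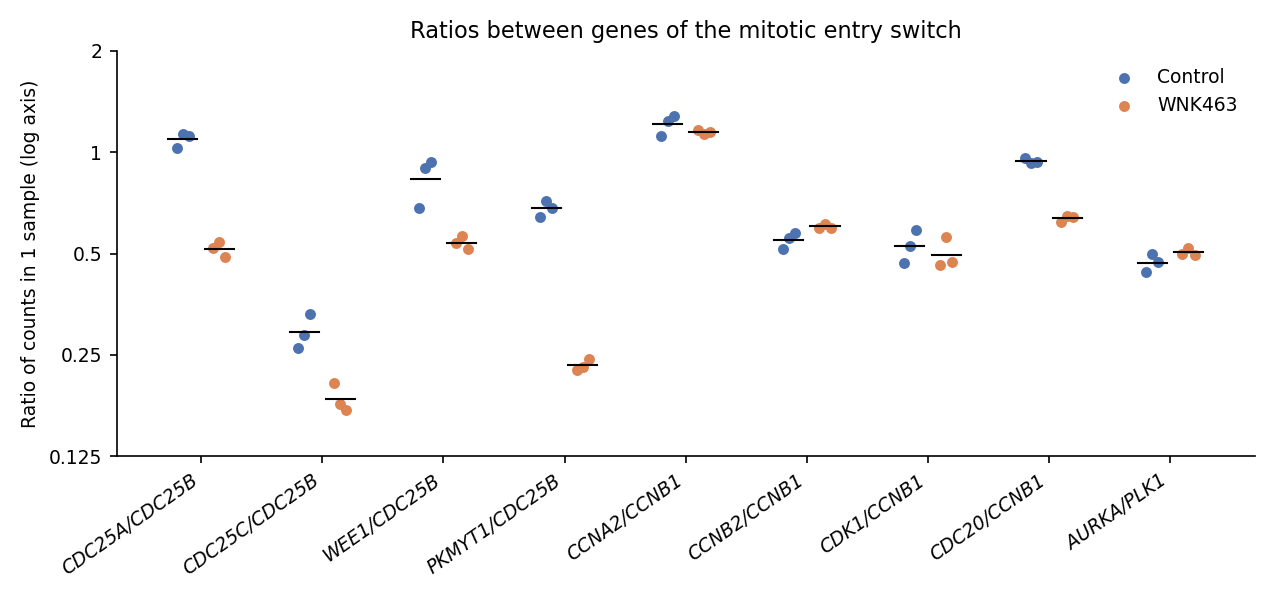
Ratios of counts of 2 genes within each sample, on a log axis, for 9 of the 12 ratios. Points are samples and black lines are group means of the log2 ratio. The ratios of *CDC25A*, *CDC25C*, *WEE1* and *PKMYT1* to *CDC25B* and of *CDC20* to *CCNB1* are lower in all WNK463 samples, while those of *CCNA2* and *CDK1* to *CCNB1* overlap.

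Levels of different genes were compared by TPM (transcripts per 1000000), which takes account of transcript length. *CCNB1* was highest in both groups, at 231 ± 3.48 TPM in Control and 216 ± 5.0 TPM with WNK463 (SD, n = 3 each). In Control it was followed by *PLK1* at 210 ± 2.24, *CDC20* at 197 ± 8.88, *CCNA2* at 153 ± 6.54, *CCNB2* at 127 ± 3.94, *AURKA* at 104 ± 5.26 and *CDK1* at 96.8 ± 8.68 TPM. *CDC25A* at 50.15 ± 1.45, *CDC25B* at 45.2 ± 1.96 and *CDC25C* at 23.0 ± 1.80 TPM were lowest. The ranges of neighbours in this order overlapped only for *AURKA* and *CDK1*. With WNK463 the order changed in 3 places. *CDC20* at 130 ± 2.05 TPM came below *CCNA2* at 141 ± 3.13 and *CCNB2* at 136 ± 3.48, *AURKA* at 76.8 ± 3.41 below *CDK1* at 88.8 ± 9.76, and *CDC25A* at 26.6 ± 0.630 below *CDC25B* at 50.15 ± 1.91 TPM. *PLK1* at 143 ± 1.58 TPM overlapped with *CCNA2*, and *CCNA2* with *CCNB2*, so their order with WNK463 was within the spread between samples. The length implied by the ratio of counts to TPM shifted by -0.03 to 0.03 on the log2 scale in the 10 genes.

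The kinases that hold CDK1 inactive fell as well. *PKMYT1* fell from 50.2 ± 2.05 to 16.9 ± 0.490 CPM (mean ± SD of 3 samples, here and below), at a log2 fold change of -1.57 (SE 0.07, adjusted p = 3.7e-12 from edgeR). *WEE1* fell from 61.6 ± 6.77 to 39.0 ± 1.93 CPM, by 0.66 on the log2 scale (SE 0.08, adjusted p = 6.2e-07). The ratio of *PKMYT1* to *CDC25B* was 0.644, 0.718 and 0.684 in Control and 0.226, 0.231 and 0.244 with WNK463 (exact permutation p = 0.10). For *WEE1* to *CDC25B* the ratio was 0.685, 0.900 and 0.937 in Control and 0.538, 0.563 and 0.516 with WNK463 (exact permutation p = 0.10), and on the TPM scale the groups of this ratio overlapped. Over the list of CDK1 brakes and subunits, 3 of 10 genes were lower (30%) and 3 higher (30%), with a median log2 fold change of 0.04. These shares were near those of all tested genes, 35.3% lower and 35.5% higher. *CDKN1B*, which encodes the CDK inhibitor p27, rose from 86.7 ± 5.14 to 195 ± 1.83 CPM (log2 fold change 1.17, adjusted p = 2.4e-12), and *CDKN1A*, which encodes p21, rose by a log2 fold change of 0.40 (adjusted p = 6.7e-07). The CDK-binding subunit *CKS1B* fell by 0.33 on the log2 scale, and its relative *CKS2* had a log2 fold change of 0.00, with a 95% interval from -0.18 to 0.19.

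Relatives of the 10 genes were compared next, and 8 of 10 listed relatives passed the filter on low counts. Of these, 5 were lower (62.5%) and 2 higher (25%), against 35.3% and 35.5% of all tested genes. With at least 10 counts in every sample, which leaves out *CCNB3*, 1 was higher. *CDK2*, the kinase partner of cyclins E and A, fell from 68.2 ± 2.57 to 25.3 ± 0.694 CPM (log2 fold change -1.43, adjusted p = 2.5e-12 from edgeR), and its interval from -1.57 to -1.29 did not overlap that of *CDK1*, from -0.46 to -0.16. *AURKB*, the Aurora kinase of the chromosomal passenger complex, and *PLK4*, the Polo kinase of centriole duplication, both fell by 0.62 on the log2 scale. *FZR1*, the other activator of the APC/C, fell by 0.41, which did not pass with limma on log2(TPM + 1), at -0.10. *PLK3* rose by a log2 fold change of 0.43, and *CCNB3*, a B-type cyclin with 9 to 45 counts per sample, rose by 1.36 from 0.835 ± 0.191 to 2.18 ± 0.740 CPM.

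Most genes in the list of partners of the Aurora kinases and PLK1 were lower as well. Of 10 genes, 6 were lower (60%), 1 was higher (10%) and 3 did not pass, with a median log2 fold change of -0.59. The shares over all tested genes were 35.3% lower and 35.5% higher. Lower genes in this list included *INCENP*, *BIRC5* and *CDCA8* of the chromosomal passenger complex, which belong with *AURKB* (-0.75, -0.64 and -0.55). *TPX2*, the spindle activator of Aurora kinase A, fell from 297 ± 6.17 to 177 ± 7.86 CPM (log2 fold change -0.74, adjusted p = 2.4e-10 from edgeR). *TACC3*, a spindle protein that Aurora kinase A phosphorylates, fell by 0.90 on the log2 scale (adjusted p = 2.1e-11). *BORA* had a log2 fold change of -0.11 (adjusted p = 0.22), and 0.04 with total counts. *CEP192* and *NEDD1* did not pass either, at -0.06 and 0.02, and *BUB1* was lower at -0.66. The one gene that rose was *HMMR*, a spindle assembly factor, from 108 ± 18.4 to 142 ± 8.24 CPM (log2 fold change 0.40, adjusted p = 4.8e-04).

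The phosphatase PP2A-B55 opposes CDK1, and the Greatwall kinase holds it back in mitosis. *MASTL*, the Greatwall kinase gene, fell from 22.1 ± 1.94 to 14.3 ± 0.898 CPM (log2 fold change -0.63, adjusted p = 1.5e-05 from edgeR). The PP2A subunits *PPP2R1A* and *PPP2R2D* fell by 0.47 and 0.45 on the log2 scale. In the Greatwall and PP2A-B55 list, 5 of 7 genes were lower (71.4%) and 0 higher, against 35.3% and 35.5% of all tested genes. Under total-count scaling, by which 26.1% of all tested genes were lower, 3 were lower and 2 higher. There were also 3 lower without Control replicate 3. Among 21 genes of the APC/C and mitotic exit, 13 were lower (61.9%) and 4 higher (19%), with a median log2 fold change of -0.40. Without WNK463 replicate 2 or replicate 3, 2 of the 21 were higher. *UBE2C*, the ubiquitin-conjugating enzyme that works with the APC/C, fell from 80.0 ± 1.32 to 44.4 ± 1.11 CPM (log2 fold change -0.85, adjusted p = 3.9e-10). The separase gene *ESPL1* fell by 0.66 and the APC/C inhibitor *FBXO5* by 0.88 on the log2 scale. The APC/C subunits *ANAPC10* and *ANAPC13* rose, with log2 fold changes of 0.54 and 0.44.

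Among the genes named here other than the myeloid markers, the largest fall was that of a promoter factor. *MYBL2*, whose product binds the promoters of G2 and M phase genes with the MuvB complex, fell from 345 ± 17.2 to 67.5 ± 3.25 CPM (log2 fold change -2.36, adjusted p = 7.1e-16 from edgeR). *FOXM1*, which acts on the same promoters, fell from 157 ± 7.66 to 91.9 ± 1.99 CPM (log2 fold change -0.78, adjusted p = 4.5e-10). *TFDP1*, the partner of the E2F factors, fell by 0.97 on the log2 scale, and *RBL2*, which encodes p130 of the repressive DREAM complex, rose by 0.16 (adjusted p = 0.0083), a call that was lost without WNK463 replicate 1 (0.12). Of these 15 promoter factors, 10 were lower (66.7%) and 1 higher (6.67%), with a median log2 fold change of -0.39, and 2 were higher with total counts. Of 12 tested genes of the G2 checkpoint, 6 were lower (50%) and 4 higher (33.3%), with 5 and 6 under total-count scaling. *CHEK1*, the kinase that restrains the CDC25 phosphatases, fell by 1.01 and its mediator *CLSPN* by 1.41 on the log2 scale, while *BTRC* and *FBXW11*, which encode the adaptors that send CDC25A and WEE1 to degradation, rose by 0.46 and 0.32.

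Proliferation genes outside the switch gave a mixed picture too. *MKI67* fell from 1022 ± 70.5 to 678 ± 36.7 CPM (log2 fold change -0.59, adjusted p = 2.4e-08 from edgeR), and the G1 kinase gene *CDK4* and the replication clamp gene *PCNA* fell by 0.95 and 0.82 on the log2 scale. *CENPF*, a kinetochore gene of G2 and M phase, rose by 0.49 (adjusted p = 2.1e-05) and *CCND3*, a G1 cyclin, by 0.39. Of 15 genes in this reference list, 10 were lower (66.7%) and 5 higher (33.3%), against 35.3% and 35.5% of all tested genes. In the KEGG cell cycle annotation of the deposited table, without the 10 genes, 62 of 111 tested genes were lower (55.9%) and 25 higher (22.5%). The median log2 fold change of the 111 was -0.30. In the GO annotation for the G2/M transition, without the 10 genes, 18 of 32 tested genes were lower (56.2%) and 7 higher (21.9%), with a median of -0.19. With limma on log2(TPM + 1), 11 of these genes were lower, against 23.3% of all tested genes in that fit.

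**Figure D4:**
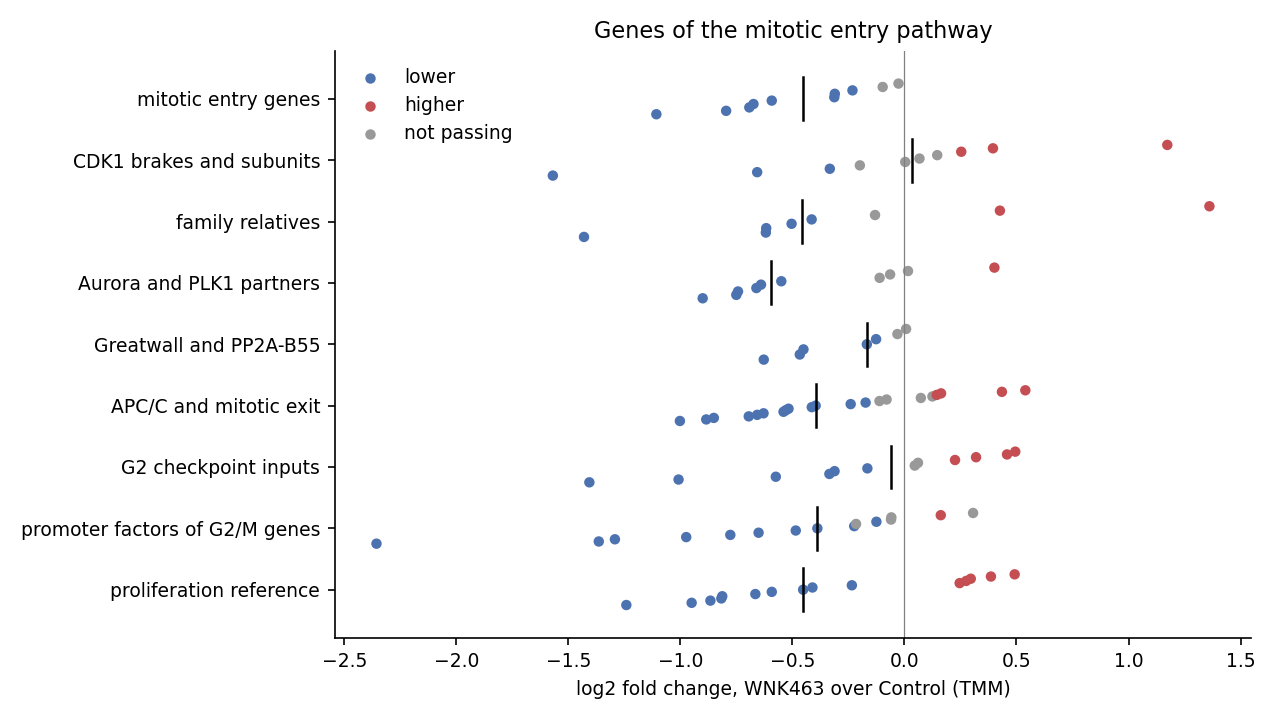
Log2 fold change (WNK463 over Control, TMM) of every tested gene in the 10 mitotic entry genes and 8 related lists. Points are genes, coloured by whether they were lower, higher or not past an adjusted p of 0.05, and vertical bars are list medians. Medians lie between -0.59 for the Aurora and PLK1 partners and 0.04 for the CDK1 brakes and subunits.

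The pattern of *CDK1* over the 6 samples was compared with that of 9012 genes with a mean of at least 10 CPM, by the Euclidean distance between centred log2 CPM values. The nearest genes were *ZNF273*, *ERI2*, *MRPL13*, *THUMPD2* and *BRAP*, at distances of 0.067 to 0.0954 and with log2 fold changes of -0.34 to -0.31. *CCNA2* ranked 374 and *CCNB1* 1105 in this order, and *CDC25A*, at 7285, was the farthest of the other 9 mitotic entry genes. Some counts could be shared with other loci. *PLK1* shares 11.6% of its exonic bases in GENCODE 29 with an antisense gene, *CCNA2* 9.08% with *EXOSC9* and *CDC25C* 8.78% with *FAM53C*, all on the opposite strand, and the strand setting of the counting is not given in the sources used here. Processed pseudogenes of *AURKA*, *CCNB2* and *CDC20* are annotated as well, and how reads matching both were assigned was not tested.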

How the data were processed

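Messenger RNA of MV4-11 cells (3 Control, 3 WNK463) was sequenced. The submitters' processing notes name fastp, Bowtie2, HISAT2, StringTie, RSEM, DESeq2, edgeR and GRCh38, with no role. The authors deposited whole-number estimated counts and TPM values (62 counts of 0 have a TPM above 0). Their own group means and test results were not used.

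Counts were tested with edgeR 4.0.16 in R 4.3.3 (TMM, filterByExpr, quasi-likelihood, Benjamini-Hochberg over 11973 genes). SE is the fold change over the root of F. The 10 genes had 1688 to 19679 counts each, and replicates varied by 5.21%, more than sampling noise (chi-square per degree of freedom 2.68 to 7.40). No batch is given. Alternatives were DESeq2 1.42.0, total-count scaling, other filters, limma 3.58.1 on log2(TPM + 1) and log2(TPM + 0.1), the replicate block, glmTreat and each sample left out. The edgeR procedure was tested on simulated data in which few genes changed, a test that cannot decide between the scalings.

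Genes, lists, ratios and motifs were chosen with earlier results of these data known. Of each list, the text names the 2 lower and 2 higher genes with the smallest p and a fixed set of regulators. In the list of Aurora kinase and PLK1 partners, further genes were named outside this rule. Markers and genes sharing exons were named after their values were seen.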

Additional observations from a re-analysis of the deposited data

How the results depend on the processing

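*CDC25A*, *CDC20*, *PLK1*, *AURKA* and *CDC25C* passed as lower in each of the 13 alternatives run for them, at log2 fold changes of -1.13 to -0.89, -0.83 to -0.60, -0.73 to -0.54, -0.63 to -0.44 and -0.79 to -0.47. With total-count scaling, *CCNB1* and *CDK1* did not pass, at -0.0798 and -0.161, and *CCNB2* and *CDC25B* changed sign, at 0.0549 and 0.126. With limma on log2(TPM + 1) and log2(TPM + 0.1), *CCNA2* was at -0.116 and -0.117, *CCNB1* at -0.0953 and -0.0956 and *CDK1* at -0.125 and -0.126, none of which passed, and *CCNB2* was at 0.0940 and 0.0946 and *CDC25B* at 0.148 and 0.151. By these fits 5 of the 10 genes were lower, against 23.3% and 23.2% of all tested genes. *CDC25A* was not past the fold limit with total counts, either TPM fit or glmTreat, so that 0 of the 10 genes were called by that rule. On the TPM scale the shift of *CDC20* relative to *CCNB1* was -0.509.

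With each sample left out in turn, 8 to 9 of the 10 genes were lower, against 33% to 34.8% of all tested genes. *CCNB2* ranged from -0.119 to -0.0855 and passed without Control replicate 1 (-0.119, edgeR adjusted p = 0.049), and *CDC25B* ranged from -0.0742 to 0.0160, with the positive value again without Control replicate 1. Among all genes, 2658 and 2646 were lower with the TPM fits in place of 4222, 266 and 366 were lower past the fold limit in place of 665, and 740 were higher past it with at least 10 counts in every sample in place of 1152. The share of higher genes among those that passed was 65.2% with limma on log2(TPM + 1). *BORA* changed sign with total counts (0.0415) and the TPM fits (0.0611 and 0.0628). *CKS2* changed sign with DESeq2 (-0.0061), with no filter (-0.0115) and in 4 of the 6 fits without a sample (-0.0628 to 0.0988 over the 6). The causes of these changes were not tested. Replicate numbers did not pair the samples (correlations of their deviations of 0.02, -0.01 and -0.05). With the replicate block 8 of the 10 genes were lower, with 4175 lower (34.9%) and 4223 higher among all genes.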
